A study of Mus musculus with 16 samples.

Results

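The unfolded protein response and the integrated stress response were followed through 34 mouse genes in RNA labelled as coming from alveolar epithelial type II (AT2) cells, the surfactant-producing cells of the lung. Members were taken by gene symbol, and each was represented by the array feature with the highest mean over the 16 samples. All 34 were measured, by 50 features, among 20725 genes with a named feature. They were ordered by role into 11 factors and regulators of the stress response, 7 genes of amino acid and one-carbon supply, 12 chaperones and folding enzymes of the endoplasmic reticulum (ER), and 4 genes around Xbp1 and ER-associated degradation. No member was left out by a filter on low values.

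Each of the 4 groups came from pups at postnatal day 3 and was defined by genotype and oxygen. The wild-type groups held 4 samples in normoxia and 6 in hyperoxia, and the Fgf10+/- groups, heterozygous for an allele of the fibroblast growth factor gene Fgf10, held 4 and 2. Hyperoxia was 85% oxygen from postnatal day 0 to day 3. The titles and genotype labels give these sizes, whereas the series text gives 4 samples per group, and the titles were followed. The sources used here do not give the kind of Fgf10 allele, how the cells were purified or how many pups a sample holds. Nothing in the labels says that samples of a group are separate animals or pools. The p-values set each difference against the spread between samples within groups, which may be partly technical. That spread was estimated over the 4 groups together.

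When unfolded proteins gather in the ER, the sensors PERK, IRE1 and ATF6 raise chaperones and degradation factors, with the spliced form of XBP1 and cleaved ATF6 as the transcription factors. PERK belongs to a family of kinases that phosphorylate the translation factor eIF2 under different stresses, and this integrated stress response lowers general translation while translation of ATF4 goes up. ATF4 in turn drives amino acid transporters, synthetic enzymes, one-carbon enzymes and feedback regulators. AT2 cells secrete large amounts of surfactant proteins and rely on this folding machinery.

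The 2 arms read different promoter elements, so windows around the annotated starts were searched for their letters on both strands. RefSeq windows (GRCm38.p6), 250 bases before to 50 bases after a start, were on hand for 30 of the 34 members; Slc7a5, Eif4ebp1, Manf and Hyou1 had no window in the table. The ER stress response element (ERSE: CCAAT, 9 bases of any kind, CCACG), read by ATF6 and XBP1, lay in the windows of 6 members, all of them chaperones: Hspa5, Hsp90b1, Calr, Pdia6, Dnajc3 and Creld2. It was found in 0.137% of the 27025 genes with a window. The second form of it (ERSE-II: ATTGG, any base, CCACG) lay in Herpud1 and in 0.0444% of genes. The C/EBP and ATF4 response element (CARE, TGATGNAA) lay in Atf3, Nupr1, Trib3, Chac1, Vldlr, Asns and Herpud1 and in 4.51% of genes. The match of Trib3 did not lie wholly within the 250 bases before its start. The unfolded protein response element (UPRE, TGACGTGG) lay in 0 members and in 0.714% of genes. A match is a description of letters and does not show binding.

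Shown here are the 250 bases before the start of the 6 members that both held a match and changed with hyperoxia, with matches in capitals, read 5′ to 3′ on the gene's strand. Creld2 follows as a gene with an ERSE whose level differed by 0.01. The capitals are an ERSE in Hspa5, Dnajc3 and Creld2, a CARE in Chac1, Asns and Vldlr (the second of its 2 starts), and a CARE followed by an ERSE-II, which do not overlap, in Herpud1. The CARE of Herpud1, Chac1 and Vldlr and the ERSE of Creld2 match on the opposite strand and so appear as the reverse complement.
Hspa5, chr2:34771840-34772089, plus strand: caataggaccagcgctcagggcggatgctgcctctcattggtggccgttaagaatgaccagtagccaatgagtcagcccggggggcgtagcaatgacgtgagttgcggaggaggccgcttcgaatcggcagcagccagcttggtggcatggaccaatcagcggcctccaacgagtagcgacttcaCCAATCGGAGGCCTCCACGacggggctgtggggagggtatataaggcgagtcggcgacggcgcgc
Dnajc3, chr14:118937682-118937931, plus strand: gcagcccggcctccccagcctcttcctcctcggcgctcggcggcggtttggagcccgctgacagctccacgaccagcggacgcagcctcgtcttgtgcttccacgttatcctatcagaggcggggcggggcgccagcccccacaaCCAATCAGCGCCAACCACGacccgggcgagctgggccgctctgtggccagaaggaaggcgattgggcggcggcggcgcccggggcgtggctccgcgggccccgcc
Herpud1, chr8:94386179-94386428, plus strand: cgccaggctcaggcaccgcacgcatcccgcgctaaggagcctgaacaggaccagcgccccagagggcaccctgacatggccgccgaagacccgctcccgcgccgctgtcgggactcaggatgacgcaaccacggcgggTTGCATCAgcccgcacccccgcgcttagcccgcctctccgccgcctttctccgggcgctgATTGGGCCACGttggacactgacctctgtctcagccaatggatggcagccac
Chac1, chr2:119350992-119351241, plus strand: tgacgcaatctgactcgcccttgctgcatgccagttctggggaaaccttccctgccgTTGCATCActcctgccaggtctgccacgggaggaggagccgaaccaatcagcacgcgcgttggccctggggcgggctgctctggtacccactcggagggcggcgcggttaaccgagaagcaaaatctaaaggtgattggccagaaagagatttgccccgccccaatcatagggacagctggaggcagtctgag
Asns, chr6:7693210-7693459, minus strand: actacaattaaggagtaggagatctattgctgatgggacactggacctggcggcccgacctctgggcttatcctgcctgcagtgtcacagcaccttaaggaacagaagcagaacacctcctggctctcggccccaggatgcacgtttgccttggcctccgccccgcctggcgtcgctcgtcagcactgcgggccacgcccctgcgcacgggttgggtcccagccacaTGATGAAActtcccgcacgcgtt
Vldlr, chr19:27216770-27217019, plus strand: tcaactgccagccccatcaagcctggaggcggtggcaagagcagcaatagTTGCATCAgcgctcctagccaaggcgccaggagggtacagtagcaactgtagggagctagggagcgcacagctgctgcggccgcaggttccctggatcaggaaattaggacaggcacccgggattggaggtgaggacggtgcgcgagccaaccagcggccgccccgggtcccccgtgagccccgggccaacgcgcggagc
Creld2, chr15:88819396-88819645, plus strand: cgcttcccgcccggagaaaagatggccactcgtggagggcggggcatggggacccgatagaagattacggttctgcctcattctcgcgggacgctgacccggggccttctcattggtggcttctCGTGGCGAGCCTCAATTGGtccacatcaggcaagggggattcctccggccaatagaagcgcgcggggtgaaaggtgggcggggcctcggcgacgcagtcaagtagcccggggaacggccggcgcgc

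Markers of the labelled cell type were high. Sftpc, the surfactant protein C gene, lay at the top of the intensity scale in all groups, and the mean of 10 AT2 markers ran from 11.06 to 12.38. Markers of other cells were present too, some as high as those of AT2 cells: the mean of 5 club cell markers ran from 9.93 to 14.53 and that of 3 erythroid markers from 9.90 to 14.55. The mean of 10 thymocyte markers was 5.54 to 6.43 in 4 normoxia libraries (Fgf10+/- replicates 1, 2 and 4 and wild-type replicate 4), 4.25 to 4.75 in the remaining 4 from normoxia, and 4.01 to 4.42 under hyperoxia (8 libraries); the median of all values on the arrays was 4.34. All 10 thymocyte markers had a negative difference with hyperoxia and 2 fell. The mean of 6 smooth muscle markers was 6.38 to 7.65 in 7 normoxia libraries, 9.94 in wild-type normoxia replicate 1, and 7.99 to 8.98 in hyperoxia. Of 5 club cell markers 2 fell (median difference -1.14), and of 4 dividing cell markers 2 fell. Of 8 macrophage and myeloid markers 2 rose (mean 6.53 to 7.38 in normoxia and 6.96 to 8.35 in hyperoxia), and of 6 endothelial markers 2 rose (7.26 to 8.56 and 7.72 to 9.25). The 3 erythroid markers had positive differences (median 1.17), and 0 were called by limma or had an unadjusted p under 0.05. The part of these cells in the members' differences was not tested beyond the fits with marker covariates. In such bulk RNA, fewer cells of a type and less RNA per cell cannot be told apart.

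With hyperoxia the module moved mostly downward. Averaged over both genotypes, 14 of the 34 members passed an adjusted p of 0.05 in limma's moderated test with Benjamini-Hochberg adjustment over all 20725 genes. That is 41.2% of members against 11.1% of all genes. Dim genes are called less often and 33 of the 34 members have a mean of 6 or more: tested among the 8299 such genes alone, 16 of 33 members were called, against 29.5% of those genes. Of the 14, 12 fell (6.14% of all genes fell) and 2 rose (4.97% rose). The median difference of the 34 members was -0.36 on the log2 scale, and that of all genes was -0.06. In Chac1, Slc7a5, Dnajc3 and Herpud1 the ranges of the 8 hyperoxia and 8 normoxia samples were separate, as in 3.55% of all genes. The count of 14 became 9 without Fgf10+/- normoxia replicate 2, while calls among all 20725 genes went from 2302 to 1966. It was lower still without either Fgf10+/- hyperoxia sample, which leaves 1 sample in that group. Calls among all genes were fewer there too. The members were proposed with results of these samples in view, so these shares are descriptions. The average weighs both genotypes equally, and the 2 Fgf10+/- hyperoxia samples therefore carry as much weight as the 6 wild-type ones.

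Fewer members passed without the 4 thymocyte-rich libraries. In that fit of 12 samples, with 1 Fgf10+/- normoxia sample left, 1 of the 34 members was called, the chaperone gene Hspa5 (2.25% of all genes). The median difference of the members was then -0.37 and 28 of 34 differences were negative. Hspa5, Dnajc3, Hyou1, Herpud1, Slc3a2, Sdf2l1 and Asns differed by about as much as before or more, while the differences of Phgdh, Slc7a5, Mthfd2 and Psat1 were over 1.5 times smaller. With the mean of the thymocyte markers added to the model 4 were called (4.12% of all genes): Hspa5, Dnajc3, Hyou1 and Ppp1r15a. Centring each array on its median, which shifted the median of all genes by 0.11 and the share of higher genes among all called genes from 44.7% to 64.4%, left 10 of the 14 calls. It turned the sign of 3 members that were not called (Eif4ebp1, Hsp90b1 and Sel1l) and of none that was.

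**Figure D1:**
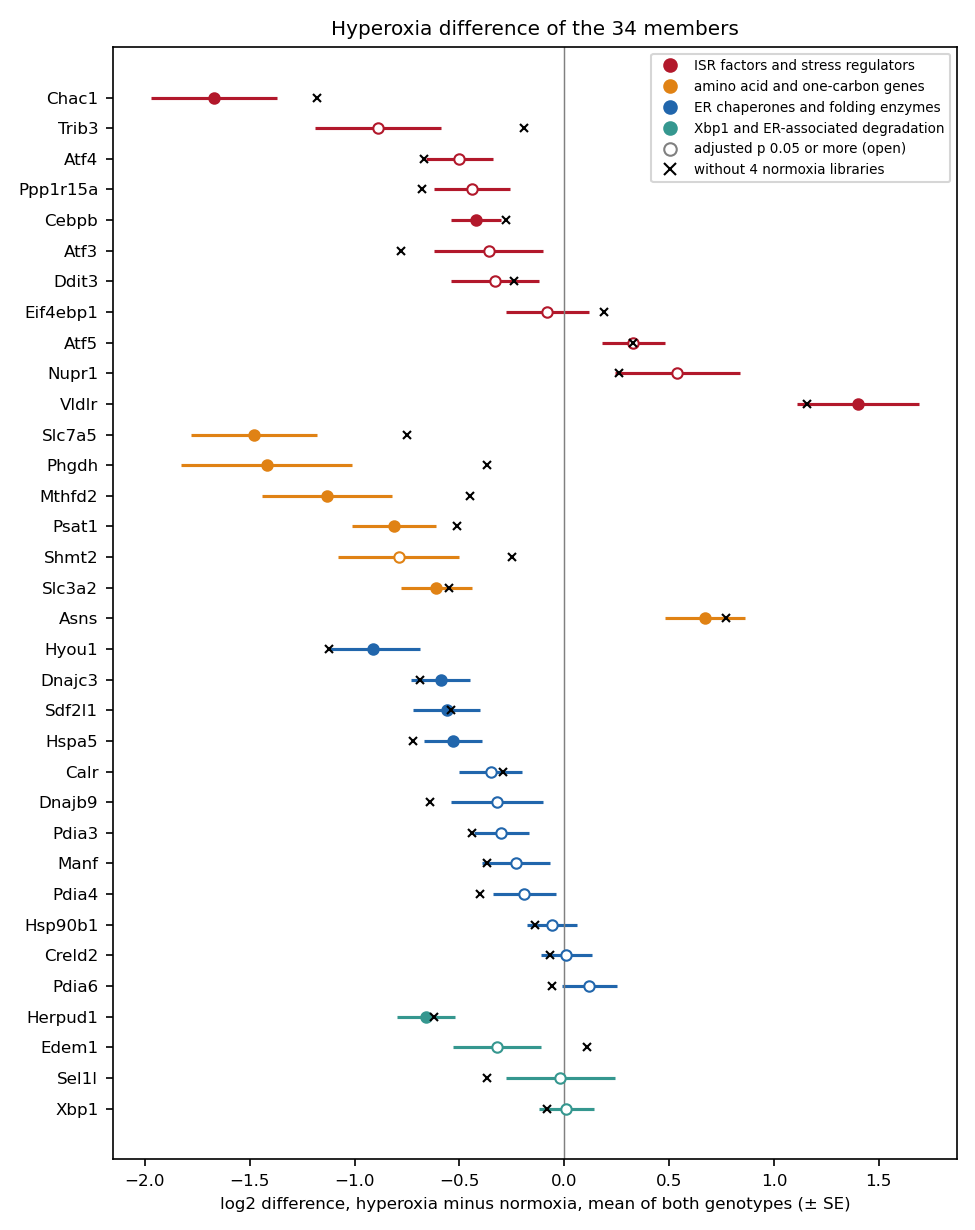
Log2 difference between hyperoxia and normoxia, averaged over genotypes, for each of the 34 members on the vertical axis, with its standard error; filled points passed an adjusted p of 0.05 and crosses give the value without the 4 normoxia libraries highest in thymocyte markers. Chac1 lies lowest at -1.67 and Vldlr highest at 1.40, and the crosses of the amino acid genes Phgdh, Slc7a5, Mthfd2 and Shmt2 lie nearer to 0 than their points.

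Among the 11 stress factors and regulators, 2 fell and 1 rose, with a median difference of -0.36. Chac1, an ATF4 target whose enzyme degrades glutathione, read 9.11, 10.46, 10.24 and 10.52 in wild-type normoxia and 10.26, 10.86, 9.26 and 10.02 in Fgf10+/- normoxia. In hyperoxia it read 7.72 to 8.99 with a median of 8.43 in the 6 wild-type samples, and 7.97 and 8.87 in the Fgf10+/- samples. Every hyperoxia sample lay below every normoxia sample. The difference was -1.67 (SE 0.30, 3.19-fold lower, limma adjusted p = 0.00206). It kept its call whichever of the 16 samples was left out, and was -1.18 (adjusted p = 0.128) without the 4 thymocyte-rich libraries, with hyperoxia still below each of the other 4 normoxia samples.

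Vldlr, the very low density lipoprotein receptor and an ATF4 target, went the other way. It read 9.35, 7.80, 8.31 and 6.99 in wild-type normoxia, 8.26, 7.57, 7.91 and 7.50 in Fgf10+/- normoxia, 8.88 to 9.90 with a median of 9.49 in wild-type hyperoxia, and 9.39 and 9.30 in Fgf10+/- hyperoxia. Only wild-type normoxia replicate 1 reached into the hyperoxia range. Vldlr rose by 1.40 (SE 0.29, 2.64-fold, limma adjusted p = 0.00519) and kept its call whichever of the 16 samples was left out. That 1 high normoxia sample was also the one highest in smooth muscle markers, at 9.94. With the smooth muscle marker mean as a covariate, chosen after seeing the data, Vldlr differed by 0.76 (adjusted p = 0.0436), and 3 of the 34 members were called, 1 lower and 2 higher (4.8% of all genes). Without the 4 thymocyte-rich libraries Vldlr differed by 1.16 (adjusted p = 0.0917), and with the thymocyte covariate by 1.00 (adjusted p = 0.122).

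Cebpb, a bZIP factor that pairs with ATF4 and CHOP, fell by a smaller amount. It read 10.60, 10.36, 10.52 and 10.56 in wild-type normoxia, 10.58, 10.52, 10.17 and 10.43 in Fgf10+/- normoxia, 10.06 to 10.48 with a median of 10.24 in wild-type hyperoxia, and 9.89 and 9.79 in Fgf10+/- hyperoxia. The oxygen groups overlapped, and the 2 Fgf10+/- hyperoxia samples were the lowest of all. The difference was -0.42 (SE 0.12, limma adjusted p = 0.0377). Leaving out 1 sample ended the call in 12 of 16 cases, with differences over all 16 of -0.46 to -0.39 and an adjusted p of up to 0.146 (without Fgf10+/- hyperoxia replicate 2), and after median centring (-0.31).

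Atf4 itself did not pass the test. It read 14.51, 14.85, 14.89 and 14.39 in wild-type normoxia, 14.07, 14.37, 14.58 and 14.29 in Fgf10+/- normoxia, 13.60 to 14.32 with a median of 14.16 in wild-type hyperoxia, and 13.77 and 14.10 in Fgf10+/- hyperoxia. The difference was -0.50 (SE 0.16, limma adjusted p = 0.0554). The 4 thymocyte-rich libraries had 14.07 to 14.39, below the 14.51 to 14.89 of the other normoxia samples, and the hyperoxia samples lay below all of those others at 13.60 to 14.32. Without the 4 libraries the difference was -0.67 (adjusted p = 0.136). Much of ATF4 control is translational, and protein was not measured here.

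The remaining stress regulators differed in both directions without passing the test. Trib3, a pseudokinase that restrains ATF4, differed by -0.89 (SE 0.30, limma adjusted p = 0.0699) and by -0.19 without the thymocyte-rich libraries, which held 8.96 to 10.07 against 8.01 to 8.97 in the other normoxia samples. Ppp1r15a, the GADD34 subunit that directs eIF2 dephosphorylation, differed by -0.44 (adjusted p = 0.128), and with the thymocyte covariate by -0.77 (adjusted p = 0.036). Atf3, an inducible bZIP repressor, differed by -0.36 and Ddit3, which encodes the pro-apoptotic factor CHOP, by -0.33 (adjusted p = 0.431 and 0.368). Eif4ebp1, an inhibitor of cap-dependent translation, differed by -0.08 and turned to 0.03 after median centring. Nupr1, a stress-induced chromatin protein, differed by 0.54 and Atf5, a bZIP factor translated like ATF4, by 0.33 (adjusted p = 0.28 and 0.187).

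The 7 amino acid and one-carbon genes had the lowest median of the role groups, at -0.81, and 5 fell and 1 rose. Slc7a5, the LAT1 light chain that imports large neutral amino acids, read 6.05, 6.25, 6.43 and 7.82 in wild-type normoxia, 7.55, 7.93, 6.04 and 6.94 in Fgf10+/- normoxia, 5.14 to 5.90 with a median of 5.49 in wild-type hyperoxia, and 5.53 and 5.05 in Fgf10+/- hyperoxia. No hyperoxia sample reached the lowest normoxia sample. Slc7a5 fell by 1.48 (SE 0.30, 2.80-fold lower, limma adjusted p = 0.00487), a call kept whichever of the 16 samples was left out. The 4 thymocyte-rich libraries held its 4 highest values, 6.94 to 7.93 against 6.04 to 6.43 in the other normoxia samples, and without them the difference was -0.75 (adjusted p = 0.097).

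Phgdh, the first enzyme of serine synthesis, showed the widest gap between normoxia samples. It read 8.53, 8.34, 7.77 and 10.56 in wild-type normoxia, 9.72, 10.69, 7.98 and 9.56 in Fgf10+/- normoxia, 7.42 to 8.15 with a median of 7.85 in wild-type hyperoxia, and 7.86 and 7.37 in Fgf10+/- hyperoxia. The oxygen groups overlapped, and all 4 values above 9 came from the thymocyte-rich libraries. Phgdh fell by 1.42 (SE 0.41, limma adjusted p = 0.0328), and differed by -0.37 (adjusted p = 0.421) without those libraries and by -0.15 (adjusted p = 0.708) with the thymocyte covariate. Without Fgf10+/- normoxia replicate 1, 2 or 4 the adjusted p was 0.0544, 0.0598 and 0.0555 (differences -1.38, -1.22 and -1.41). Without Fgf10+/- hyperoxia replicate 1 or 2 it was 0.0823 and 0.145 (-1.54 and -1.30).

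Psat1, the next enzyme of that pathway, read 8.88, 9.34, 9.24 and 9.93 in wild-type normoxia, 9.74, 10.12, 9.32 and 9.70 in Fgf10+/- normoxia, 8.18 to 8.95 with a median of 8.46 in wild-type hyperoxia, and 9.35 and 8.56 in Fgf10+/- hyperoxia. The conditions overlapped, with Fgf10+/- hyperoxia replicate 1 the highest hyperoxia sample. Psat1 fell by 0.81 (SE 0.20, limma adjusted p = 0.0177), with -0.51 (adjusted p = 0.311) without the thymocyte-rich libraries and -0.61 (adjusted p = 0.146) without Fgf10+/- hyperoxia replicate 2. Shmt2, the mitochondrial enzyme that takes one-carbon units from serine, differed by -0.79 (adjusted p = 0.0907) and by -0.25 without the 4 libraries. Those libraries held 7.63 to 8.81 of Shmt2, against 6.82 to 7.54 in the other normoxia samples and 6.55 to 7.20 in hyperoxia.

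Mthfd2, the mitochondrial folate enzyme downstream of Shmt2, read 6.28, 6.36, 6.15 and 7.22 in wild-type normoxia, 6.76, 7.44, 5.52 and 6.85 in Fgf10+/- normoxia, 4.65 to 6.12 with a median of 5.57 in wild-type hyperoxia, and 4.94 and 5.88 in Fgf10+/- hyperoxia. Of the normoxia samples Fgf10+/- replicate 3 alone lay inside the hyperoxia range. Mthfd2 fell by 1.13 (SE 0.31, limma adjusted p = 0.0273), and differed by -0.45 (adjusted p = 0.519) without the thymocyte-rich libraries. The adjusted p was 0.0511 (-0.99) without Fgf10+/- normoxia replicate 2, 0.0505 (-1.09) without replicate 4, 0.0538 (-1.01) without wild-type normoxia replicate 4, and 0.168 (-0.89) without Fgf10+/- hyperoxia replicate 1. In Psat1, Phgdh, Shmt2, Mthfd2 and Slc7a5 alike, each thymocyte-rich library lay above each other normoxia library. The same libraries were also the highest of normoxia in the mean of the dividing cell markers. They held 6.43 to 6.66, against 5.6 to 6.31 in the other normoxia libraries. The part of thymocytes or of dividing cells in the falls was not tested beyond the fits given here.

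Slc3a2, the heavy chain that pairs with Slc7a5 at the membrane, did not share that split. It read 11.49, 11.87, 11.76 and 11.57 in wild-type normoxia, 11.32, 11.62, 11.15 and 11.12 in Fgf10+/- normoxia, 10.34 to 11.47 with a median of 10.98 in wild-type hyperoxia, and 10.72 and 10.91 in Fgf10+/- hyperoxia. In wild type the groups did not overlap, and over both genotypes they did. Slc3a2 fell by 0.61 (SE 0.17, limma adjusted p = 0.0301) and differed by a like amount, -0.55, without the thymocyte-rich libraries, where the adjusted p was 0.257. The call was also lost without wild-type normoxia replicate 2 (-0.58, adjusted p = 0.0589), Fgf10+/- normoxia replicate 2 (-0.56, 0.0568), and Fgf10+/- hyperoxia replicate 1 (-0.56, 0.131) or 2 (-0.66, 0.0806), and after median centring (-0.51, adjusted p = 0.0547).

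Asns, asparagine synthetase and a textbook ATF4 target, rose, whereas 5 of the other 6 amino acid genes fell. It read 8.14, 9.07, 8.78 and 9.09 in wild-type normoxia, 8.76, 9.05, 8.82 and 9.08 in Fgf10+/- normoxia, 8.74 to 9.82 with a median of 9.42 in wild-type hyperoxia, and 9.65 and 9.66 in Fgf10+/- hyperoxia. Only wild-type hyperoxia replicate 5, at 8.74, lay inside the normoxia range. The difference was 0.67 (SE 0.19, 1.59-fold, limma adjusted p = 0.034), and 0.77 (adjusted p = 0.165) without the thymocyte-rich libraries. The adjusted p was 0.0555 without Fgf10+/- normoxia replicate 1 (0.64), 0.0529 without wild-type normoxia replicate 1 (0.56), 0.054 without Fgf10+/- normoxia replicate 3 (0.65), and 0.112 and 0.117 without Fgf10+/- hyperoxia replicate 1 or 2 (0.67 and 0.66). Asns and Chac1 both carry a CARE match upstream, in the windows shown above, and differed in opposite directions.

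**Figure D2:**
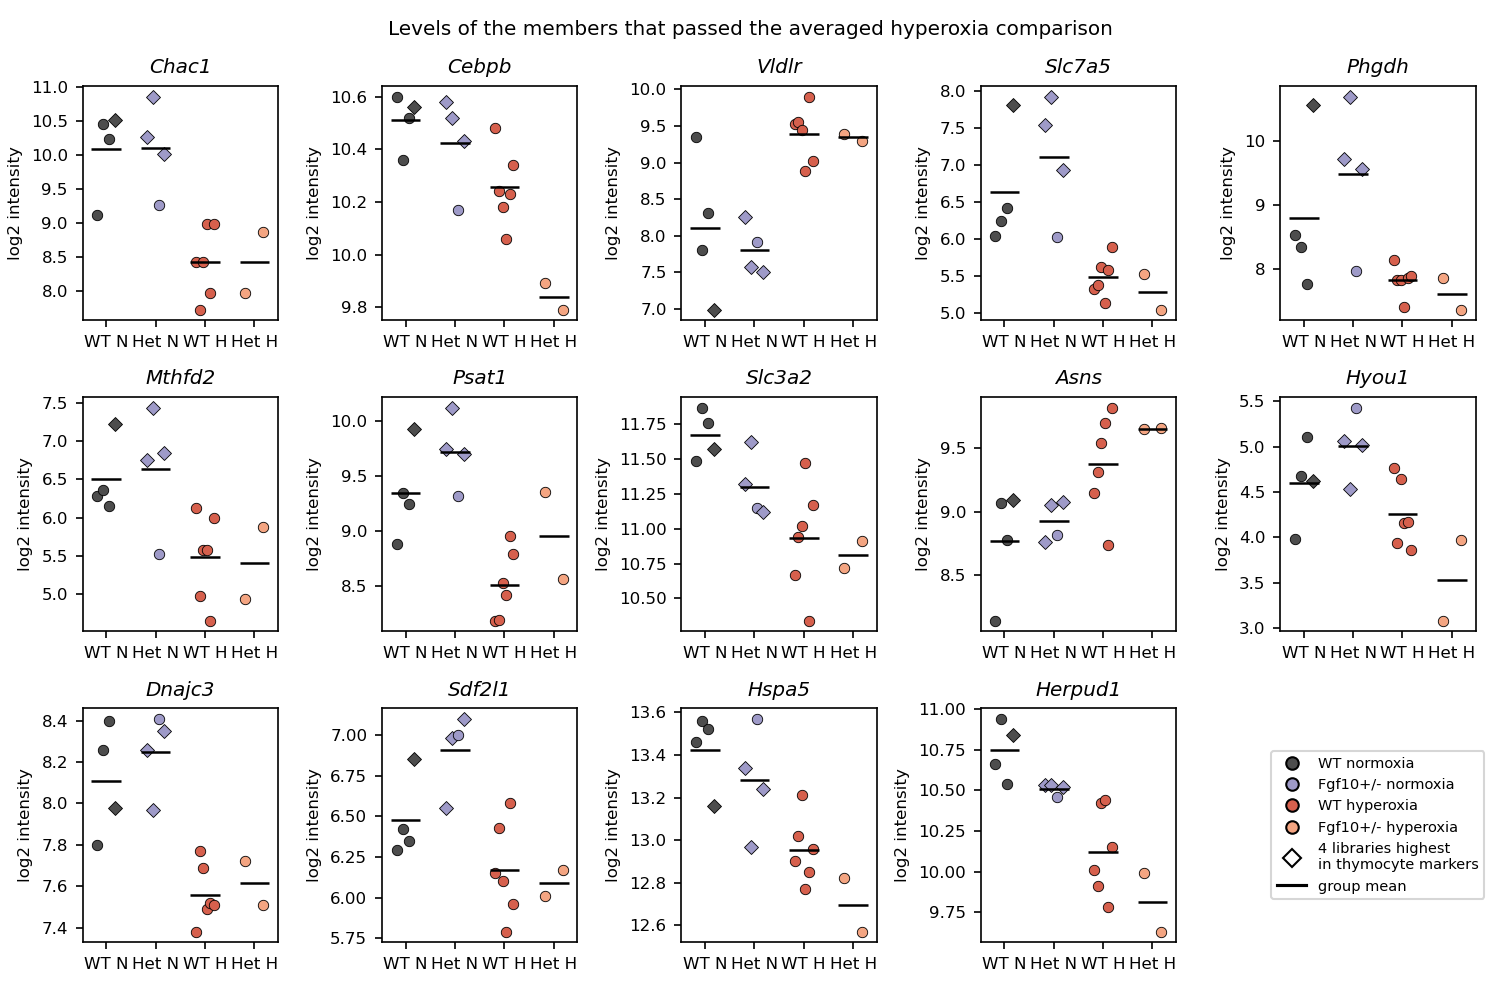
Log2 intensity of the 14 members that passed the averaged hyperoxia comparison, 1 point per sample, in wild-type (WT) and Fgf10+/- (Het) samples from normoxia (N) and hyperoxia (H); lines are group means and diamonds the 4 libraries highest in thymocyte markers. The diamonds are the highest points of Phgdh, Slc7a5, Mthfd2 and Psat1 but not of Hspa5 or Dnajc3.

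Of the 12 ER chaperones and folding enzymes 4 fell and 0 rose, with a median of -0.31. Hspa5, the Hsp70 chaperone BiP that holds the sensors inactive, read 13.46, 13.56, 13.52 and 13.16 in wild-type normoxia, 13.34, 12.97, 13.57 and 13.24 in Fgf10+/- normoxia, 12.77 to 13.21 with a median of 12.93 in wild-type hyperoxia, and 12.82 and 12.57 in Fgf10+/- hyperoxia. The 4 thymocyte-rich libraries were its lowest normoxia samples, at 12.97 to 13.34, and the other 4, at 13.46 to 13.57, all lay above hyperoxia. Hspa5 fell by 0.53 (SE 0.14, 1.44-fold lower, limma adjusted p = 0.0206), and by 0.72 (adjusted p = 0.0474) without the thymocyte-rich libraries. The call was lost without Fgf10+/- hyperoxia replicate 1 (-0.59, adjusted p = 0.0508) or replicate 2 (-0.47, adjusted p = 0.116), and after median centring (-0.42, adjusted p = 0.0631).

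Dnajc3, the J-domain partner of BiP also known as an inhibitor of eIF2 kinases, read 7.80, 8.26, 8.40 and 7.98 in wild-type normoxia, 8.26, 7.97, 8.41 and 8.35 in Fgf10+/- normoxia, 7.38 to 7.77 with a median of 7.51 in wild-type hyperoxia, and 7.72 and 7.51 in Fgf10+/- hyperoxia. The 8 samples of each oxygen condition did not overlap. Dnajc3 fell by 0.59 (SE 0.14, 1.51-fold lower, limma adjusted p = 0.0121), with -0.69 (adjusted p = 0.0822) without the thymocyte-rich libraries, -0.74 (adjusted p = 0.0244) with their covariate, and -0.54 (adjusted p = 0.0778) without Fgf10+/- hyperoxia replicate 2.

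Hyou1, the large ER chaperone that exchanges nucleotide on BiP, was dim, near the 4.34 median of all values. It read 3.98, 4.68, 5.11 and 4.62 in wild-type normoxia, 5.06, 4.53, 5.43 and 5.02 in Fgf10+/- normoxia, 3.86 to 4.76 with a median of 4.16 in wild-type hyperoxia, and 3.08 and 3.97 in Fgf10+/- hyperoxia. The separation was complete in Fgf10+/-, with 2 samples against 4, and not in wild type, with 6 against 4. Hyou1 fell by 0.91 (SE 0.22, limma adjusted p = 0.0144), with -1.12 (adjusted p = 0.0885) without the thymocyte-rich libraries and -0.69 (adjusted p = 0.124) without Fgf10+/- hyperoxia replicate 1, its lowest sample.

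Sdf2l1, a cofactor of the BiP cycle, read 6.29, 6.42, 6.35 and 6.85 in wild-type normoxia, 6.55, 6.98, 7.0 and 7.10 in Fgf10+/- normoxia, 5.79 to 6.58 with a median of 6.13 in wild-type hyperoxia, and 6.01 and 6.17 in Fgf10+/- hyperoxia. The groups overlapped in wild type (6 samples against 4) and not in Fgf10+/- (2 against 4). Sdf2l1 fell by 0.56 (SE 0.16, limma adjusted p = 0.0326), with -0.54 (adjusted p = 0.187) without the thymocyte-rich libraries. Leaving out 1 sample ended the call in 8 of 16 cases, with differences over all 16 of -0.62 to -0.50 and an adjusted p of up to 0.135 (without Fgf10+/- hyperoxia replicate 1), and after median centring (-0.46, adjusted p = 0.0824).

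The other 8 folding genes did not pass the test and lay closer to 0. Calr, a lectin chaperone of glycoproteins, differed by -0.35 (limma adjusted p = 0.151), Pdia3, the disulfide isomerase that works with it, by -0.30 (0.167), and Dnajb9, a BiP partner induced by XBP1, by -0.32 (0.403). Manf, a secreted ER stress factor, differed by -0.23 and Pdia4, a disulfide isomerase, by -0.19. The Hsp90 of the ER, Hsp90b1, differed by -0.06 (SE 0.12), Pdia6, a disulfide isomerase that acts on the sensors, by 0.12 (SE 0.13), and Creld2, a secreted disulfide isomerase, by 0.01 (SE 0.12). Of the 6 chaperone genes with an ERSE match, Hspa5 and Dnajc3 fell and Calr, Hsp90b1, Pdia6 and Creld2 did not pass. Without the thymocyte-rich libraries all 12 differences were negative, from -1.12 to -0.06, and the median was -0.42.

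In the fourth role group 1 of 4 genes fell. Herpud1, a membrane protein of the degradation complex, read 10.66, 10.94, 10.54 and 10.84 in wild-type normoxia, 10.53, 10.53, 10.46 and 10.52 in Fgf10+/- normoxia, 9.78 to 10.44 with a median of 10.08 in wild-type hyperoxia, and 9.99 and 9.63 in Fgf10+/- hyperoxia. The oxygen conditions did not overlap. Herpud1 fell by 0.66 (SE 0.14, 1.58-fold lower, limma adjusted p = 0.0073). It differed by -0.62 (adjusted p = 0.15) without the thymocyte-rich libraries and by -0.57 (adjusted p = 0.0659) without Fgf10+/- hyperoxia replicate 2. Xbp1, whose transcript is spliced by IRE1, differed by 0.01 (SE 0.13); the array feature was not shown to tell its spliced form from the unspliced one. Sel1l, the adaptor of the HRD1 ligase, differed by -0.02 and turned to 0.09 after median centring. Edem1, a mannosidase-like lectin of the same route, differed by -0.32, and by 0.11 without the thymocyte-rich libraries, which lay at 7.23 to 7.89 against 6.70 to 6.99 in the other normoxia samples.

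The ATF4 side and the chaperone side were set side by side. The 18 stress factors and amino acid genes had a median difference of -0.47, with 7 lower and 2 higher calls. The 12 chaperones had -0.31, with 4 lower and 0 higher. The gap between the 2 medians was -0.16. A like gap, taken between the 2 medians in each single sample, varied within groups by 0.25 (SD). That SD describes single samples and is not an error of the gap, which was not tested. In wild type the gap was -0.30 (SD 0.18) and in Fgf10+/- -0.05 (SD 0.30). Without the 4 thymocyte-rich libraries the gap in wild type kept its sign, at -0.16. In Fgf10+/-, where 1 normoxia sample was then left, it was 0.39, and averaged over genotypes 0.09. Both sides of the gap moved. The median of the amino acid genes went from -0.81 to -0.45, and that of the chaperones from -0.31 to -0.42.

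Per sample, the median of the 7 amino acid genes, each set against its own mean over the 16 samples, was -0.13 to 1.42 in normoxia and -0.67 to -0.26 in hyperoxia, so the conditions did not overlap. The same median of the 12 chaperones was -0.01 to 0.35 in normoxia and -0.31 to 0.05 in hyperoxia, and that of the 11 stress regulators -0.17 to 0.30 and -0.38 to 0.04. Both of these overlapped. Among normoxia samples the 4 highest amino acid medians were those of the 4 thymocyte-rich libraries, and among hyperoxia samples, whose thymocyte marker means spanned 4.01 to 4.42, all amino acid medians were below 0.

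**Figure D3:**
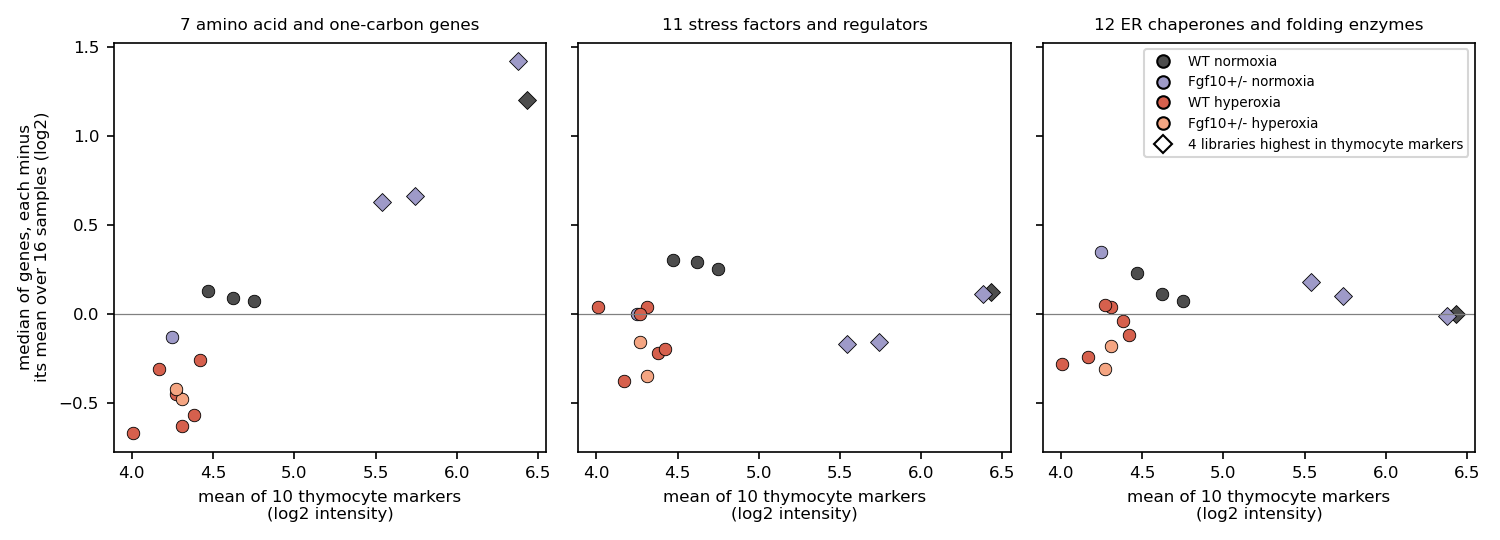
Median of the amino acid genes, stress regulators and chaperones in each sample (log2, each gene minus its mean over 16 samples) against the mean of 10 thymocyte markers (log2 intensity); diamonds are the 4 libraries highest in those markers. The amino acid medians of the diamonds reach 1.42, while those of the chaperones stay between -0.01 and 0.35 in all normoxia samples.

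Within one genotype few members passed. In wild type Chac1 was called, 1 of 34 (3.13% of all genes). At an unadjusted p under 0.05 there were 14 members. The share of all genes at that unadjusted threshold is not given, here or for such counts below. No enrichment is therefore read from them. Chac1 differed by -1.66 (SE 0.36, limma adjusted p = 0.0159). Its call was lost without wild-type normoxia replicate 2 (-1.53, adjusted p = 0.0681) or replicate 4 (-1.51, adjusted p = 0.0663). Next in each role were Vldlr (1.27, adjusted p = 0.0538), Slc3a2 (-0.74, 0.0605), Psat1 (-0.85, 0.0693), Dnajc3 (-0.55, 0.0844), Hspa5 (-0.47, 0.133), Herpud1 (-0.63, 0.0571) and Sel1l (-0.28, 0.689). The wild-type samples of each condition did not overlap in 7 members, Chac1, Slc3a2, Herpud1, Dnajc3, Slc7a5, Atf4 and Mthfd2, as in 7.16% of all genes.

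In Fgf10+/- 14 members had an unadjusted p under 0.05, with the same limit. Hyou1 was called, 1 of 34 (2.45% of all genes at the adjusted threshold). It differed by -1.48 (SE 0.36, limma adjusted p = 0.0376). Both Fgf10+/- hyperoxia samples, at 3.08 and 3.97, lay below the 4.34 median of all array values, and its feature was not shown to be above background there, so no fold is given. Leaving out 1 sample ended this call without either hyperoxia sample (replicate 1: -1.04, adjusted p = 0.352; replicate 2: -1.93, 0.0594), without Fgf10+/- normoxia replicate 1 (-1.47, 0.0726), 3 (-1.35, 0.0676) or 4 (-1.48, 0.0767), and without wild-type normoxia replicate 2 (-1.48, 0.0516), which enters through the shared spread. Next were Chac1 (-1.68, 0.0756), Vldlr (1.53, 0.0942), Slc7a5 (-1.83, 0.057), Phgdh (-1.87, 0.154), Sdf2l1 (-0.82, 0.113), Herpud1 (-0.70, 0.13) and Edem1 (-0.44, 0.564). The 2 genotypes, which share no samples in these comparisons, had the same sign in 29 of 34 members (23 negative and 6 positive, 85.3%), against 68.1% of all genes. The 68.1% includes dim genes, and the share among genes with a mean of 6 or more is not given. The 85.3% is therefore not read as particular to the members.

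**Figure D4:**
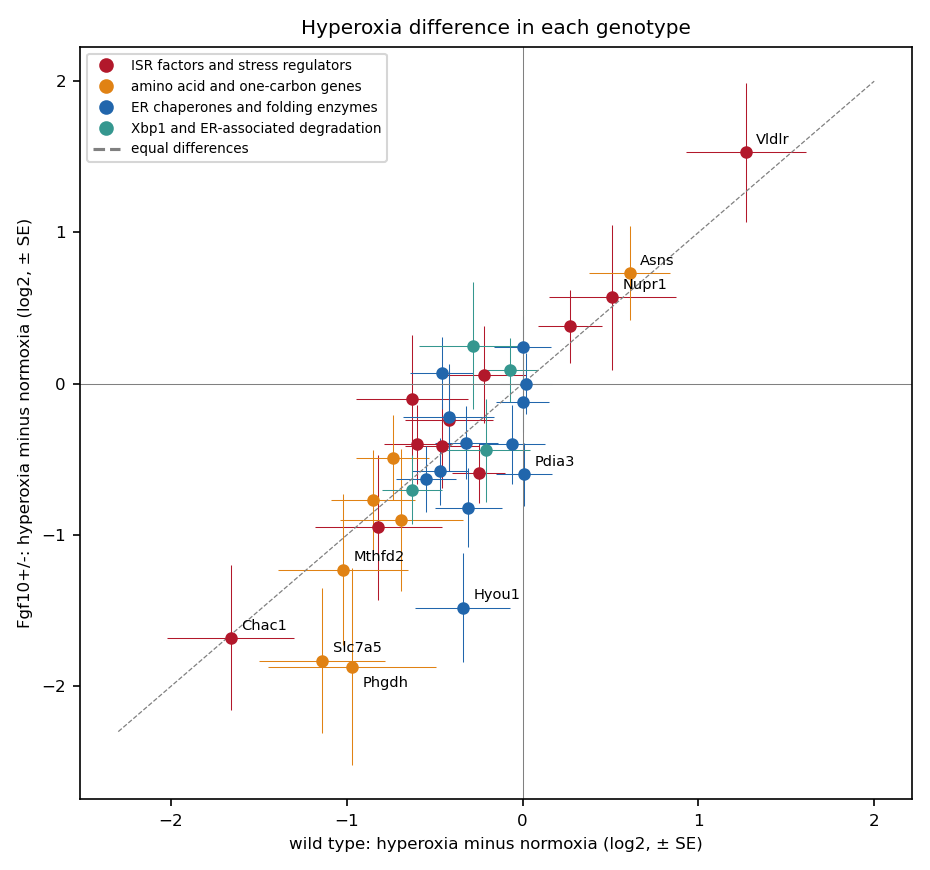
Hyperoxia difference of each member in wild type (horizontal axis) and in Fgf10+/- (vertical axis), log2 with standard errors; the dashed line marks equal differences. Chac1 lies near the line at -1.66 and -1.68, Vldlr is positive in both genotypes, and Hyou1 lies below the line at -0.34 and -1.48.

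No member passed in the comparison of the genotypes. Between Fgf10+/- and wild type 0 of 34 members were called in normoxia by limma (0.00965% of all genes), with 0 at an unadjusted p under 0.05, and 0 in hyperoxia (0% of all genes), with 2 at an unadjusted p under 0.05. In normoxia the smallest p-values per role were those of Dnajb9 (-0.60, SE 0.29), Pdia3 (0.36), Sel1l (-0.62), Xbp1 (-0.29), Ppp1r15a (-0.42), Atf3 (-0.54), Slc3a2 (-0.37) and Psat1 (0.37), with limma adjusted p-values of 0.823 to 0.923. In hyperoxia they were Cebpb (-0.42, SE 0.19), Ppp1r15a (-0.36), Hyou1 (-0.73, SE 0.34), Pdia4 (0.43), Psat1 (0.45), Asns (0.28), Herpud1 (-0.31) and Xbp1 (-0.12), all at an adjusted p of 1. Under hyperoxia Cebpb was at 10.06 or more in every wild-type sample and at 9.89 and 9.79 in the Fgf10+/- samples.

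The interaction, which asks whether the hyperoxia difference depended on genotype, called 0 of 34 members (0.00965% of all genes), with 2 at an unadjusted p under 0.05. These were Hyou1 (-1.14, SE 0.44) and Pdia3 (-0.61, SE 0.26), both at a limma adjusted p of 1. Pdia3 read 9.86, 9.86, 9.76 and 9.42 in wild-type normoxia and 10.04, 9.83, 10.26 and 10.19 in Fgf10+/- normoxia, against 9.47 to 9.87 with a median of 9.75 and 9.55 and 9.41 in hyperoxia. It thus separated the oxygen conditions in Fgf10+/- (2 samples against 4) and not in wild type (6 against 4). Groups separate more easily when they hold fewer samples. Next by role were Cebpb (-0.33), Atf3 (0.53), Slc7a5 (-0.69), Phgdh (-0.90), Sel1l (0.53) and Xbp1 (0.16). With 2 Fgf10+/- hyperoxia samples these differences have wide errors, and a p above the threshold does not show that the genotypes respond alike.

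Of the 34 members 26 had 1 feature, 7 had 2 and Creld2 had 10. Adjusted over all 62911 features in place of genes, 10 members were called, with 6.48% of all features. The second features of Psat1 (-0.91, limma adjusted p = 0.0281) and Slc7a5 (-0.62, adjusted p = 0.0456) fell as the first ones did. The second Phgdh feature differed by -1.20 (adjusted p = 0.0756), that of Vldlr by 0.66 (0.173), that of Dnajb9 by -0.76 (0.0998), that of Atf4 by -0.18 (0.612) and that of Pdia6 by -0.05. The 9 other features of Creld2 lay between -0.07 and 0.09.

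Around the module, 107 further genes of the same pathways were measured, and 20 fell and 4 rose in the averaged comparison (22.4%, against 11.1% of all genes), with a median of -0.26. The 11.1% includes dim genes, which are called less often. Among the 8299 genes with a mean of 6 or more, tested alone, 29.5% were called. The 107 genes were not counted under that filter, so no enrichment is read from 22.4%. The same limit applies to the shares of these genes within each genotype. Of the 24 other ATF4 targets 5 fell and 1 rose. Ddit4, an inhibitor of mTOR complex 1, fell by 1.39 (limma adjusted p = 0.00753, and -0.74 with 0.177 without the thymocyte-rich libraries). The neutral amino acid transporter gene Slc1a4 fell by 1.00 (0.00492, and -1.13 without those libraries). Sqstm1, the autophagy receptor p62, fell by 0.82 (0.00916, and -1.05 without those libraries). The stress cytokine gene Gdf15 rose by 1.01 (0.00493), and differed by 0.90 without those libraries. Its means were 7.75 in wild-type and 6.24 in Fgf10+/- normoxia, and 8.37 and 7.65 in hyperoxia. The Fgf10+/- hyperoxia mean thus lay near that of wild-type normoxia. Between genotypes in normoxia Gdf15 differed by -1.51 without overlap, and did not pass (limma adjusted p = 0.0952). Among 13 aminoacyl-tRNA synthetases Vars, which charges valine, was the 1 that fell (-1.31, adjusted p = 0.00182, and -0.96 without the thymocyte-rich libraries).

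Of 24 other folding, translocation and redox genes 3 fell. Txndc5, a disulfide isomerase, fell by 1.26 (limma adjusted p = 3.05e-04, and -1.36 without the thymocyte-rich libraries). Sec61a1, the channel of the translocon, fell by 0.56 (0.00456, and -0.58 without those libraries). Ero1b, an ER oxidase, fell by 1.02 (0.00834, and -1.01 without those libraries). Of 13 other degradation genes 4 fell and 1 rose, among them Ube2j1 (-0.54), Edem2 (-0.66) and Os9 (-0.56), while Derl2 rose by 0.48. Ero1b and Edem2 were dim. Their means in Fgf10+/- hyperoxia, 4.08 and 4.28, lay below the 4.34 median of all array values. Of 18 sensors and eIF2 control genes 4 fell and 1 rose. Ppp1r15b, the constitutive counterpart of Ppp1r15a, fell by 0.83 (0.00862, and -0.82 without the thymocyte-rich libraries). Its means in wild-type and Fgf10+/- hyperoxia were low too, at 4.94 and 4.65. The kinase gene Eif2ak2 fell by 0.56 and the exchange factor gene Eif2b2 by 0.60. Eif2b3 rose by 0.78, and differed by 0.71 without those libraries.

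Outside the ER, 3 of 9 cytosolic heat shock genes fell and 1 rose. The small heat shock gene Hspb1 fell by 1.22 (limma adjusted p = 0.00263, and -1.54 without the thymocyte-rich libraries). Dnajb1 fell by 0.92 and Hsp90ab1 by 0.48. Hspa8, the constitutive Hsc70, rose by 0.74 (0.00674). Of the 6 genes of the mitochondrial unfolded protein response 0 were called by limma, with 1 at an unadjusted p under 0.05 (Yme1l1, -0.56, adjusted p = 0.171). In the wild-type comparison 6 of the 107 genes were called (3.13% of all genes): Txndc5 (-1.02), Vars (-1.09), Slc1a4 (-1.01), Sqstm1 (-0.85), Ppp1r15b (-0.89) and, higher, Hspa8 (0.87). In the Fgf10+/- comparison 6 were called (2.45% of all genes): Txndc5 (-1.51), Vars (-1.54), Ddit4 (-1.99), Hspb1 (-1.47) and, higher, Gdf15 (1.41) and Eif2b3 (1.39). These calls rest on the thymocyte-rich libraries, without which 1 Fgf10+/- normoxia sample is left. Without them the differences were -1.55, -1.12, -1.03, -1.98, 1.26 and 1.11, in the same order.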

How the data were processed

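RNA of the 16 samples was hybridised to single-colour Agilent arrays, per the labels' protocols. The deposited table holds log2 intensities, already normalized by the authors: after sorting, no 2 arrays were more than 0.2 apart at any rank. The sources used here give no software, log base or background correction, and the log2 scale was inferred from the range. Detection flags, slides and scan dates were not used here. The number of arrays limits the precision.

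Of 62976 features 65 with a missing value were left out, and 31439 were named through the probe annotation, updated with RefSeq gene tables (GRCm38.p6). The feature with the highest mean stood for each of 20725 genes. Group means of all 16 samples were fitted with limma 3.58.1 (R 4.3.3; lmFit, contrasts, eBayes), with Benjamini-Hochberg adjustment over all genes and a threshold of 0.05. The script was tested on simulated data. Groups followed the titles. All 34 members are named, with values by sample for those called. Where fewer than 3 were called, the 2 with the smallest p per role are named, and of other lists up to 4 called genes, or the one with the smallest p. The members and lists were chosen with earlier results of these data known. Alternatives were the features averaged, median centring, a filter on dim genes, fewer groups in the fit, sample weights, a trended prior, marker covariates, a replicate block and samples left out.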

Additional observations from a re-analysis of the deposited data

Results flagged for a closer look

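Within groups of 4 or 6 samples, 1 sample stood apart from the others by Dixon's criterion in 5 of the 102 member and group combinations tested; chance gives about 1 in 20. Fgf10+/- normoxia replicate 1 was high for Calr (10.66, others 10.09 to 10.16) and low for Manf (7.51, others 8.41 to 8.49). Fgf10+/- normoxia replicate 3 was low for Herpud1 (10.46, others 10.52 to 10.53), a gap that is large only because the other values nearly coincide. Wild-type hyperoxia replicate 5 was high for Pdia4 (6.99, others 6.67 to 6.79), and wild-type hyperoxia replicate 1 was low for Creld2 (10.07, others 10.46 to 10.57). Of these genes Herpud1 was called in the averaged hyperoxia comparison.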

How the results depend on the processing

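Averaged over genotypes, 14 members were called. This count was 4 with the thymocyte covariate (4.12% of all genes) and 3 with a smooth muscle covariate chosen after seeing the data (4.8%). With 1 sample left out it was at most 14, and lowest without an Fgf10+/- hyperoxia sample. Without the 4 thymocyte-rich libraries it was the lowest of these alternatives. Calls among all genes were fewer in those fits too. In wild type the count of 1 (3.13% of all genes) became 3 with averaged features (2.44%), 2 with median centring (3.23%), 9 with dim genes removed (14.1% of 8299), 5 with array weights (4.06%) and 7 with a trended robust prior (4.83%). It was 0 with the thymocyte covariate or without the 4 libraries (14 at an unadjusted p under 0.05 in each limma fit), and 0 to 4 with 1 sample left out. In Fgf10+/- the count of 1 (2.45%) became 2 with averaged features (1.6%), 8 with dim genes removed (9.54%), 3 with array weights (3.48%) and 2 with the trended prior (3.34%). It was 0 with median centring, the compared groups alone, the smooth muscle covariate (11 at an unadjusted p under 0.05), the thymocyte covariate (11) or without the 4 libraries (8), and 0 to 3 with 1 sample left out. The genotype and interaction counts were 0 under every alternative run, a replicate left out included. The gap between the ATF4 and chaperone medians, -0.16, became 0.20 with the thymocyte covariate and 0.09 without the 4 libraries. It became 0.10 in wild type with the covariate and 0.39 in Fgf10+/- without the libraries, and with 1 sample left out it was -0.27 to -0.10 (averaged), -0.39 to -0.16 (wild type) and -0.23 to 0.03 (Fgf10+/-). For single members, 4968 alternative values kept their side of the threshold and their sign, 114 lost a call, 56 gained one and 296 changed sign with no call on either side. The cause was not tested; leaving out the 4 libraries also leaves fewer samples, with 1 in Fgf10+/- normoxia. The design is limited by 2 samples in Fgf10+/- hyperoxia and by dim features such as that of Hyou1.

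Whether the replicate numbers of the titles pair the samples was not settled. Same-numbered samples of different groups deviated from their group means with correlations of -0.16 to 0.24, and differently numbered samples were not compared. With the number as a replicate block, 6 members were called in the averaged comparison (6.66% of all genes), 0 in wild type and 0 in Fgf10+/- (13 and 12 at an unadjusted p under 0.05 by limma).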
